A study of Mus musculus with 8 samples.

Results

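The glutathione transferases and the sulfotransferases are liver enzymes that couple small molecules to glutathione or to sulfate. They were taken as every gene whose symbol begins with Gst followed by a class letter and a number, with Mgst and a number, or with Sult and a number. The rule gave 42 of the 24197 genes in the table, namely 24 glutathione transferases (Gst and Mgst genes) and 18 sulfotransferases (Sult genes). Liver RNA came from hypophysectomized male CD-1 mice, an outbred strain. The pituitary had been removed at 7 weeks of age in all groups and the mice were 11 weeks old, so the controls lacked their own growth hormone (GH) as well. The 4 groups were Hypox, with no GH, and mice killed at 30, 90 or 240 min that had received a single intraperitoneal dose of recombinant rat GH, 125 ng per g. The labels call the Hypox mice untreated in the study design and vehicle-treated in the treatment protocol. Each group had 2 libraries. The file's legend gives 4 individuals per pool, and the design text tells of 8 RNA samples combined into the 2 replicates of a condition, so the spread is that between pools. All times were set against the same Hypox libraries, so GH cannot be told apart from the injection itself or the hour of the day.

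Glutathione transferases join the sulfur of glutathione to reactive molecules such as drug metabolites and products of lipid oxidation. Cytosolic sulfotransferases move a sulfonate group from the donor PAPS onto steroids, phenols, bile acids and amines, which makes them more soluble. Both families belong to the conjugating phase of liver detoxification. In mouse liver several of these genes, Sult2a genes and Sult3a1 among them, are known to differ between males and females, a difference set by the temporal pattern of GH secretion. GH signals in hepatocytes through the transcription factor STAT5b, and glutathione transferase genes are known targets of the stress factor NRF2.

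RefSeq promoter windows, 250 bases before to 50 bases after a start site in build GRCm38.p6, were matched by symbol for 36 of the 42 members, in 47 windows. They were searched on both strands for a STAT5-type motif, TTCNNNGAA, and for the core of the antioxidant response element that NRF2 binds, TGACNNNGC. These motifs lie in 8.3% and 12.4% of all 32851 promoter windows. The STAT5-type letters were found in windows of 5 members (Gsta1, Gstm6, Mgst1, Mgst2 and Sult3a1) and the antioxidant letters in windows of 4 (Gsta3, Gstm5, Gstm7 and Mgst1). The first pair below is shown because Gsta1 and Gsta2 are near copies, at 80.3% identity over 289 aligned promoter bases. The window of Gsta1 holds the letters TTCAGGGAA at position -162 from the start site, and that of Gsta2, whose introns were called lower at 90 and 240 min, holds neither motif. Gsta3, the most abundant alpha gene, is shown for its antioxidant match TGACATTGC at -121. Sult2a3 and Sult2a6 are shown because their introns lost most of their reads by 240 min, and neither window holds either motif. Sult3a1 has the letters TTCTTTGAA at -109. Capitals mark the matches, and a match describes letters only.
Gsta1, chr9:78230419-78230718, plus strand: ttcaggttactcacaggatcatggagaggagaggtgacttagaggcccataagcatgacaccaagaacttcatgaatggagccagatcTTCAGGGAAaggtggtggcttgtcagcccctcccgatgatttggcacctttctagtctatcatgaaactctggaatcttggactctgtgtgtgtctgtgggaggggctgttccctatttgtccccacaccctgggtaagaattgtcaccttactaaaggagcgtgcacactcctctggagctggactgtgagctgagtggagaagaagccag
Gsta2, chr9:78347096-78347395, minus strand: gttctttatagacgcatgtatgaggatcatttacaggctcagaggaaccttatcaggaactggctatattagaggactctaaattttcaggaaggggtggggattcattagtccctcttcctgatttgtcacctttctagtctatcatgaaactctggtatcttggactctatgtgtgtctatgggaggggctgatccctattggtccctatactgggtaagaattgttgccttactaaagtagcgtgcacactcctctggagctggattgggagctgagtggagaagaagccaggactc
Gsta3, chr1:21240335-21240634, plus strand: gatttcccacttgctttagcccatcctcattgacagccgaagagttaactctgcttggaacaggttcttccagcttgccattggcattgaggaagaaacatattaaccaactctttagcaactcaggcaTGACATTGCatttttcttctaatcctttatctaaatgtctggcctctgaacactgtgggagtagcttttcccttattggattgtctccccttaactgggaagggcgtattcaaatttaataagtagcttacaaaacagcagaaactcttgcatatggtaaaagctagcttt
Sult2a3, chr7:14122999-14123298, minus strand: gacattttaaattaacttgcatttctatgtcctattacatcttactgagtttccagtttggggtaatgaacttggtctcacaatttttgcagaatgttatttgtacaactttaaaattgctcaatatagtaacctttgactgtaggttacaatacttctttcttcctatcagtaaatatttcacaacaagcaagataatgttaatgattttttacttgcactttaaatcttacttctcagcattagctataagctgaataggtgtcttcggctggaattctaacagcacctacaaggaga
Sult2a6, chr7:14254821-14255120, minus strand: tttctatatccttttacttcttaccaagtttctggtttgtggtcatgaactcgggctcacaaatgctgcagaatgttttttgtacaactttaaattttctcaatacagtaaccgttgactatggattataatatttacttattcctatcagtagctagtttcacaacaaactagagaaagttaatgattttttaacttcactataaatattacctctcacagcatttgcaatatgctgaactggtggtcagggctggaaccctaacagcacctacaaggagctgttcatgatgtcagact
Sult3a1, chr10:33857472-33857771, plus strand: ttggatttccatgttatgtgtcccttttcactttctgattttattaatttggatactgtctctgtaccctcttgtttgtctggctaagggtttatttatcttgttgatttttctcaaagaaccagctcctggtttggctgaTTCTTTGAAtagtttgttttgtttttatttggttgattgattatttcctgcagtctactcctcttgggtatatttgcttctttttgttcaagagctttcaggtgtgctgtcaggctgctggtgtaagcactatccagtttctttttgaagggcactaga

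The promoters of Sult2a3, Sult2a4, Sult2a5 and Sult2a6 resemble one another, while Sult2a1, Sult2a2 and Sult2a7 had no window. Sult2a3 was 93% identical to Sult2a4 over 242 aligned bases, 87.4% to Sult2a5 over 277 and 81.4% to Sult2a6 over 279, while Sult2b1 was 50.7% identical to Sult2a3 over 268. Transcripts are alike as well, which limits how reads can be assigned. Of all stretches of 50 bases in the longest GENCODE M21 transcript, 62.3% of those of Gstp1 and 64.3% of those of Gstp2 also occurred in the other gene. Gsta1 shared 44.6% and Gsta2 44.8% of its stretches with the other. Among the Sult2a genes the share held by another member was 62.1% for Sult2a2, 34.5% for Sult2a5, 33.2% for Sult2a1, 26% for Sult2a4, 8.36% for Sult2a3, 7.35% for Sult2a6 and 0 for Sult2a7. Gstm3 shared 15.8% and Gstm1 10.9% with other mu genes. Values of these genes are uncertain, since the reads of near copies can be split between them, and 28 of the 42 members shared no stretch. The sharing of introns was not measured.

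The authors deposited group means, and whole reads of each library were worked out from these by arithmetic. The libraries of a group are called the deeper and the shallower by their mapped reads, and pairs of values below give the deeper first. Mapped reads numbered 15935303 to 34452570 per library, and the members took 0.515% to 0.678% of exonic and 0.187% to 0.273% of intronic reads. The tissue carried liver markers throughout, with 22900 to 30600 CPM (reads per 1e6 mapped reads, scaled between libraries) summed over 6 hepatocyte markers. Ribosomal precursor (Rn45s) made up 19470 unscaled CPM in the shallower 30 min library, which set it apart from the remaining 7 libraries at 6303 to 11881. By its label 1 Hypox library came from another sequencing run than the other 7, and whether it is the deeper or the shallower was not worked out.

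Levels differed widely among the members. Exonic levels are given in FPKM, CPM per kilobase of exon, unscaled, the only scale here on which genes can be compared. In Hypox livers the microsomal transferase gene Mgst1 had 383 and 312 FPKM, Gstm1, the main mu class gene, 266 and 231 FPKM, and Gsta3 192 and 193 FPKM. Gstz1, whose enzyme also serves tyrosine breakdown, had 62.5 and 64.9 FPKM, the pi class gene Gstp1 58.2 and 43 FPKM, and the theta class gene Gstt1 48.3 and 35.9 FPKM. The Hypox libraries of Mgst1, Gstm1, Gsta3 and Gstz1 kept this order without overlap, whereas those of Gstp1 and Gstt1 overlapped. The sulfotransferases that fit the symbol rule lay below these, and the ranking that follows covers them only. Sult2a8, listed under an older symbol outside the rule, had a Hypox mean of 31.2 FPKM. The means of Sult1a1 and Sult2a7 were 32.6 and 18.9 FPKM. Sult1a1, which sulfates phenols, had 31.5 and 33.7 FPKM, Sult2a7 16 and 21.8 FPKM, and Sult1d1 14.1 and 15.2 FPKM in Hypox livers. Next came Sult1b1, whose enzyme accepts thyroid hormones, with 2.9 and 2.54 FPKM, and Sult2a2 with 1.25 and 3.46 FPKM. The order of Sult1a1 over Sult2a7 over Sult1d1 held in both Hypox libraries, and Sult1b1 lay within the range of Sult2a2.

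**Figure D1:**
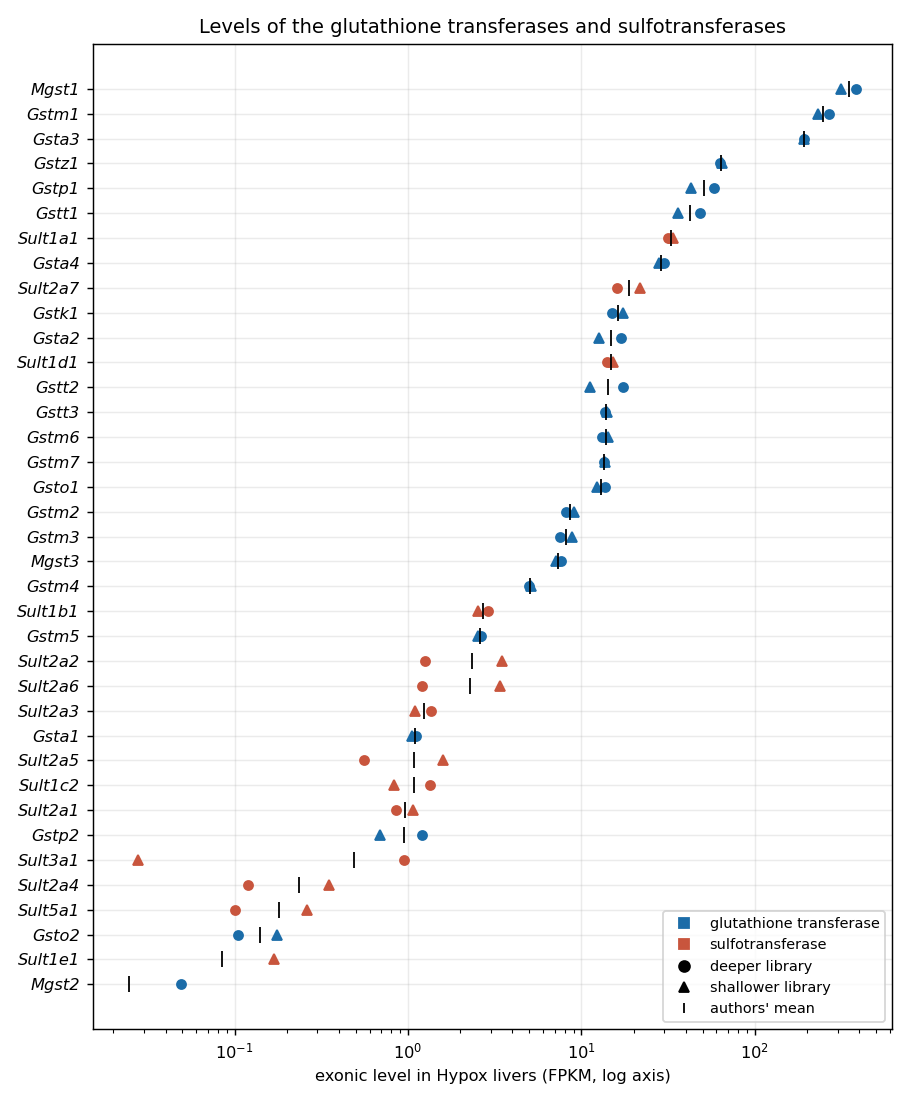
Exonic level of the 37 members with reads in Hypox livers, in FPKM on a log axis, with the deeper library as a circle, the shallower as a triangle and the authors' mean as a bar. A library without reads has no symbol. Mgst1, Gstm1 and Gsta3 stand above the rest, and the libraries lie far apart for Sult3a1, Sult2a2, Sult2a5 and Sult2a6.

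At the other end, Gstt4, Sult1c1 and the brain gene Sult4a1 had no exonic read in any library. Sult2b1 and Sult6b1 had at most 2 exonic reads in a library and none in Hypox livers. A gene was tested when at least 2 libraries held 10 or more reads of it, which left 32 members for exonic and 33 for intronic reads. The members not tested on exonic reads were these 5 with Gsto2, Mgst2, Sult1e1, Sult3a1 and Sult5a1.

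Exonic reads, which stand mainly for mature mRNA, moved little. No member passed limma's test (Benjamini-Hochberg adjusted p under 0.05 over 13170 genes) against Hypox at 30, 90 or 240 min. At 30 min this was 0 of 32 members, where 0.0532% of all genes were called higher and 0.0152% lower. The later times also gave 0 of 32, where 0.63% of all genes were called higher and 0.213% lower at 90 min, and 5.72% higher and 5.54% lower at 240 min. An unadjusted p under 0.05 was reached by 2 members at 30 min, 2 at 90 min and 4 at 240 min, against 7.02%, 9.85% and 27.6% of all genes. The limma-voom fit called no member at any of these times, and the authors' deposited table called 0 members at 30 min (0.258% of its genes higher and 0.331% lower). At 90 min that table gave Gstm3 as higher (1.24% of genes, with 0.932% lower) and at 240 min Sult3a1 as lower (3.4% of genes, with 3.8% higher). Fitted log2 fold changes of the 32 members ran from -0.26 to 0.74 at 30 min (median 0.15, against -0.01 for all genes tested), from -0.92 to 0.74 at 90 min (median 0.06, against -0.02) and from -1.47 to 0.4 at 240 min (median -0.11, against -0.03). In bulk liver, fewer cells of a type and less RNA per cell cannot be told apart.

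Among the abundant transferase mRNAs, Mgst1, Gsta3 and Gstz1 were not called in any comparison on exonic reads. Gstm1, described further below, was called between times. Exonic Mgst1 reads came to 357 and 303 CPM in Hypox livers, 335 and 375 CPM at 30 min, 346 and 302 CPM at 90 min and 376 and 317 CPM at 240 min, and all 4 groups overlapped. The log2 fold change of Mgst1 was 0.07 ± 0.15 at 240 min (limma, standard error, adjusted p = 0.799). Gsta3 had 307 and 321 CPM in Hypox livers, 378 and 314 CPM at 30 min, 345 and 265 CPM at 90 min and 307 and 275 CPM at 240 min, again with overlap at every time. Gstz1 had 62.5 and 64.9 FPKM in Hypox livers, 76.5 and 66.8 FPKM at 30 min, 72.8 and 67.6 FPKM at 90 min and 69.6 and 55.9 FPKM at 240 min. In FPKM the 30 and 90 min libraries of Gstz1 were above both Hypox libraries, while in scaled CPM those at 90 min overlapped them. Its log2 fold change was 0.21 ± 0.13 at 30 min (adjusted p = 0.809) and 0.11 ± 0.13 at 90 min (adjusted p = 0.88).

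Gstm1 was called between times but not against Hypox. The gene (chr3:107815167-107820891 in mm9, as the authors' table gives it), the main one of the mu class, had 341 and 308 exonic CPM in Hypox livers, 423 and 343 CPM at 30 min, 393 and 435 CPM at 90 min and 264 and 268 CPM at 240 min. The 30 and 90 min libraries all lay above Hypox and the 240 min libraries below it, although no time passed the test against Hypox (adjusted p = 0.802, 0.41 and 0.21 in time order). Between times, Gstm1 fell at 240 min against 90 min, by 0.64 ± 0.14 on the log2 scale (1.55-fold lower, adjusted p = 0.027), the only one of 32 members called in that comparison, where 2.48% of all genes were called lower and 2.78% higher. This call held in 4 of 10 alternative settings (adjusted p = 0.0202 to 0.187). It was lost without either library of either group, at 0.11 and 0.187 with the deeper or the shallower 90 min library left out and at 0.0731 and 0.0961 with the deeper or the shallower 240 min library left out. The same 240 min libraries were set against 30 min, where Gstm1 (-0.52 ± 0.14, adjusted p = 0.0401), Gstp1 (-0.7 ± 0.17, adjusted p = 0.03) and Gstt3 (-0.74 ± 0.2, adjusted p = 0.0411) were lower, 3 of 32 members with 5% of all genes called lower and 4.71% higher. Between 90 and 30 min limma called 0 genes (0%) on exonic reads, where 1 member and 8.81% of all genes had an unadjusted p under 0.05. Alternative settings are not given here for that comparison. Against 90 min, Sult2a1 and Sult2a2 were called lower at 240 min when the deeper 240 min library was left out, and Gsta1 was called higher when the deeper 90 min library was.

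Gstm3, a smaller mu gene, had 15.1 and 18.2 exonic CPM at 90 min against 8.97 and 10.9 CPM in Hypox livers, with no overlap. Its 30 min libraries had 20.7 and 13.2 CPM, also above both Hypox libraries, and its 240 min libraries, at 12.7 and 8.95 CPM, overlapped them. Limma gave Gstm3 at 90 min 0.74 ± 0.23 (adjusted p = 0.236), and the authors' deposited table an adjusted p of 0.00343. Gstp1, which handles many electrophiles and is abundant in male mouse liver, had 29.3 and 21.6 exonic CPM at 240 min against 42.8 and 33 CPM in Hypox livers, both below. Its log2 fold change was -0.58 ± 0.17 at an adjusted p of 0.0563. Without the deeper 240 min library Gstp1 and Sult1d1 were called lower. Gstk1, a kappa class gene of mitochondria and peroxisomes, had 19.5 and 20.8 CPM at 240 min against 13.8 and 16.7 CPM in Hypox livers, at 0.4 ± 0.13 (adjusted p = 0.0718). Gstk1 was called higher when libraries were scaled by mapped reads alone, and Gstm2 was called higher without the shallower 240 min library.

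Intronic reads, which come largely from unspliced transcripts, gave another picture, and every member called against Hypox was lower. At 30 min limma called 0 of 33 members, with 1.39% of all 12260 genes called higher and 1.02% lower. An unadjusted p under 0.05 was reached by 5 members (13.6% of all genes), the limma-voom fit called none, and the authors' deposited table gave Sult2a6 as lower (1.41% of its genes, with 1.29% higher). At 90 min 5 of 33 members fell and none rose, where 4.3% of all genes were called lower and 3.26% higher. At 240 min 7 of 33 fell and none rose, where 6.23% were called lower and 4.94% higher. The median log2 fold change over the 33 members was -0.24 at 30 min, -0.58 at 90 min and -0.58 at 240 min, against medians of -0.02, -0.02 and 0 over all genes tested. By family, in the same order, it was 0.04, -0.43 and -0.17 over the 21 glutathione transferases tested and -0.46, -1.01 and -1.83 over the sulfotransferases. At 240 min 9 of these glutathione transferases had a fitted fold change above 0 and 12 below. Among the 12 sulfotransferases tested, 12 had a fitted fold change below 0 at 240 min, with both 240 min libraries below both Hypox libraries in all 12. That separation held downward for 28.6% of all genes. Sult1c2 (16 and 14 Hypox reads) and, among the glutathione transferases, Gsta1 (13 and 11) reached 10 intronic reads in Hypox libraries only. Their place below Hypox was thus favoured by the read filter. Sult2a4 and Sult5a1 each reached it in 1 Hypox and 1 earlier GH library. The limma-voom fit called Gsta2, Gstt1 and Gstt2 lower at 90 min and Gsta2, Gstt1 and Sult1d1 lower at 240 min. Dropping the shallower Hypox library left 1 member called at 90 min (Gstt1) and 0 at 240 min, and dropping the deeper Hypox library left 4 and 6. At 90 min, 3 were called when the deeper 90 min library was dropped and 2 when the shallower was. At 240 min, 1 (Sult2a3) was called when the deeper 240 min library was dropped and 3 when the shallower was. The authors' deposited table gave 11 members lower and 1 higher at 90 min, where 4.5% and 3.08% of its genes were, and 11 lower and 0 higher at 240 min, where 5.28% and 3.51% of its genes were.

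**Figure D2:**
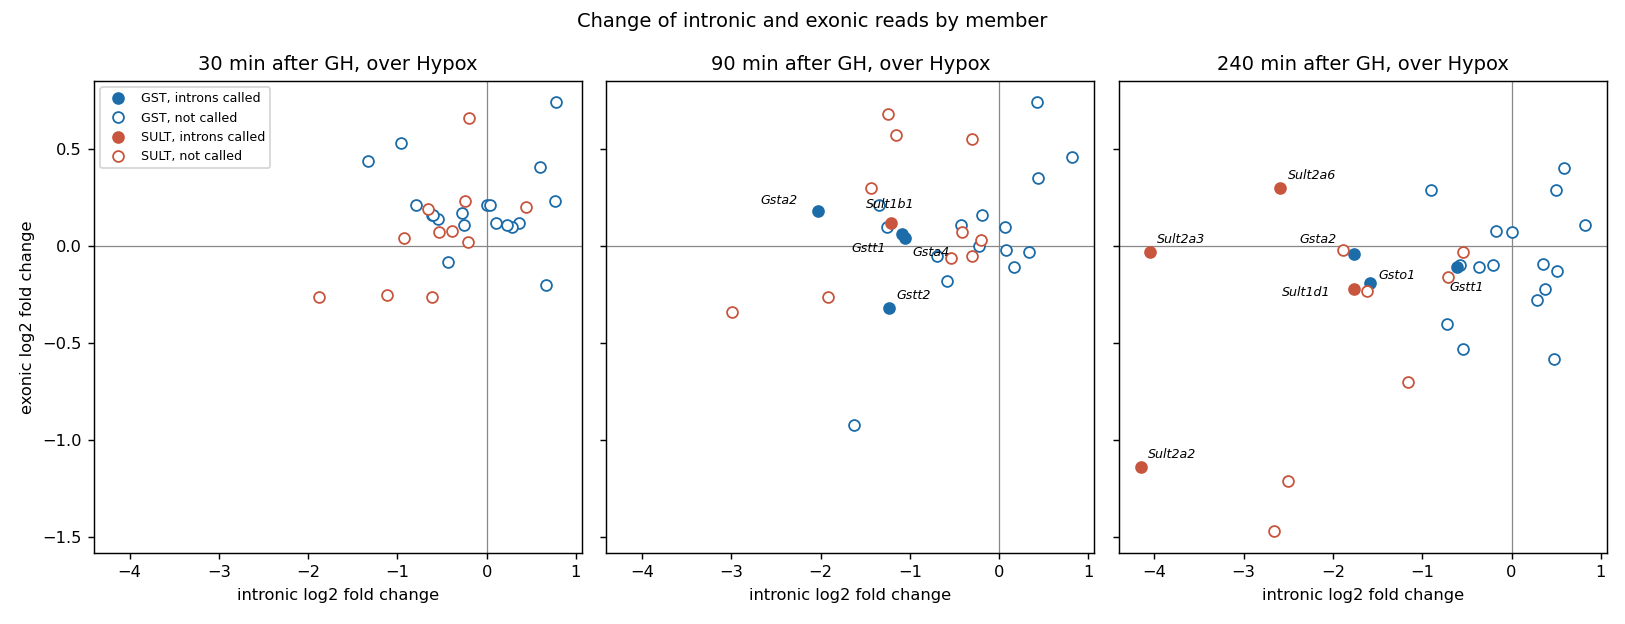
Log2 fold change over Hypox of intronic reads (horizontal) and exonic reads (vertical) at 30, 90 and 240 min, for the 30 members tested on both. Glutathione transferases are blue, sulfotransferases red, and filled points passed limma's test on intronic reads. Filled points lie left of 0, with Sult2a2 and Sult2a3 near -4 at 240 min, while their exonic changes were not called.

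Among glutathione transferases, the alpha and theta classes held most of the calls. Intronic Gsta2 reads (chr9:78178826-78194952 in mm9) came to 2.49 and 3.5 CPM in Hypox livers, 1.47 and 1.47 CPM at 30 min, 0.977 and 0.418 CPM at 90 min and 0.734 and 0.861 CPM at 240 min. All 6 GH libraries lay below both Hypox libraries. Gsta2 introns fell 4.08-fold at 90 min (log2 fold change -2.03 ± 0.35, adjusted p = 0.00616) and 3.41-fold at 240 min (-1.77 ± 0.35, adjusted p = 0.0118). The 90 min call held in 11 of 12 alternative settings (adjusted p = 4.09e-06 to 0.0748) and was lost without the shallower Hypox library (0.0748). The 240 min call held in 9 of 12 (6.63e-06 to 0.135) and was lost when the shallower Hypox (0.135), the deeper 240 min (0.0848) or the shallower 240 min library (0.0515) was left out. Exonic Gsta2 reads were 16.9 and 12.3 CPM at 90 min against 14.4 and 11.2 CPM in Hypox livers, at 0.18 ± 0.18 (adjusted p = 0.843). Whether the intronic and exonic changes differ was not tested.

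Gsta4, whose enzyme clears the lipid oxidation product 4-hydroxynonenal, had 2.53 and 1.79 intronic CPM at 90 min against 3.66 and 5.57 CPM in Hypox livers. It fell 2.07-fold at 90 min (-1.05 ± 0.27, adjusted p = 0.0376) and had 2.72 and 3.31 CPM at 240 min (-0.58 ± 0.27, adjusted p = 0.193). The 90 min call of Gsta4 held in 7 of 12 settings (0.011 to 0.305). It was lost at 0.305 without the shallower Hypox library, 0.0524 without the deeper and 0.26 without the shallower 90 min library. Gsta3 introns, which at 9.91 and 10.5 FPKM had the highest intronic level of the members in Hypox livers, had 144 and 150 CPM at 90 min against 223 and 254 CPM in Hypox livers, with no overlap, at -0.69 ± 0.22 (adjusted p = 0.0822). The authors' deposited table gave Gsta3 introns at 90 min an adjusted p of 0.00581. Gsta1 introns held too few reads for much weight, with 0 and 2 reads at 90 min against 13 and 11 in Hypox livers (-1.62 ± 0.67, adjusted p = 0.196).

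Theta class enzymes act on halogenated compounds and lipid peroxides. Intronic Gstt1 reads (chr10:75246557-75261329 in mm9) came to 13.7 and 12.4 CPM in Hypox livers, 13.6 and 12.7 CPM at 30 min, 6.44 and 5.73 CPM at 90 min and 7.38 and 9.79 CPM at 240 min. The 30 min libraries lay among the Hypox values and the later ones below them. Gstt1 introns fell 2.13-fold at 90 min (-1.09 ± 0.17, adjusted p = 0.00394), a call kept in all 12 alternative settings (2.83e-05 to 0.0419). At 240 min the fall was 1.53-fold (-0.61 ± 0.17, adjusted p = 0.0464), kept in 5 of 12 settings (0.0377 to 0.251). It was lost at 0.162 without the deeper and 0.168 without the shallower Hypox library and at 0.251 without the deeper 240 min library. Gstt2 had 1.53 and 1.79 intronic CPM at 90 min against 4.22 and 3.84 CPM in Hypox livers and fell 2.35-fold (-1.23 ± 0.27, adjusted p = 0.0188). That call held in 8 of 12 settings (0.000163 to 0.109) and was lost when any 1 library of the comparison was left out: 0.105 and 0.0948 for the deeper and shallower Hypox library, 0.109 and 0.0719 for the deeper and shallower 90 min library. Gstt3 had 0.702 and 0.537 CPM at 90 min against 1.45 and 1.76 CPM in Hypox livers, with no overlap (-1.25 ± 0.37, adjusted p = 0.0712), and the authors' deposited table called it lower. Gstt1, Gstt2 and Gstt3 lie together with the nearly silent Gstt4 on chromosome 10, from 75236866 to 75297626 in mm9.

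Gsto1, an omega class enzyme that reduces thiol compounds, had intronic reads of 0.477 and 0.317 CPM at 240 min against 1.28 and 1.48 CPM in Hypox livers. It fell 3.01-fold (-1.59 ± 0.46, adjusted p = 0.0488). This call held in 4 of 12 settings (0.00129 to 0.259), and was lost at 0.113 without the deeper and 0.259 without the shallower Hypox library and at 0.122 without the deeper and 0.191 without the shallower 240 min library. Its exonic reads were 11.5 and 15.5 CPM at 240 min against 15.6 and 14.7 CPM in Hypox livers. Mgst3, a membrane transferase, was the one member called higher between times on introns, with 2.5 and 1.86 CPM at 240 min against 0.458 and 0.597 CPM at 90 min (1.85 ± 0.4, adjusted p = 0.0133), where 5.6% of all genes were called higher. Its Hypox libraries had 1.4 and 1.57 CPM, so that the 90 min libraries lay below Hypox (-1.34 ± 0.4, adjusted p = 0.0684) and the 240 min libraries above it (0.51 ± 0.4, adjusted p = 0.447). The authors' deposited table called Mgst3 introns lower at 90 min.

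Some mu genes lay on the other side of Hypox without a call. Gstm1 introns had 20.6 and 15 CPM at 30 min against 10.5 and 10.1 CPM in Hypox livers, at 0.77 ± 0.18 (adjusted p = 0.0569), and Gstm1 was called higher without the shallower 30 min library. Gstm1, Gstm2 and Gstm3 introns had both libraries of each GH time above both Hypox libraries, and none of these comparisons passed the test. The share of all genes separated upward in this way is not given here. In Hypox livers Gstm2 had only 14 and 15 intronic reads and Gstm3 13 and 11. Gstm4 introns lay below Hypox at 30 min (6 and 4 reads against 10 and 10) and were higher in the mean at the later times. Their mean level was 0.107 FPKM in Hypox livers, 0.0749 FPKM at 30 min, 0.129 FPKM at 90 min and 0.159 FPKM at 240 min. Gstm6 introns overlapped Hypox at 240 min in scaled CPM, although their unscaled reads (17 and 16 against 23 and 29) did not. Mgst1 introns ran from 77.9 to 109 CPM over the 8 libraries, and Gstz1 introns from 19 to 32.4 CPM.

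**Figure D3:**
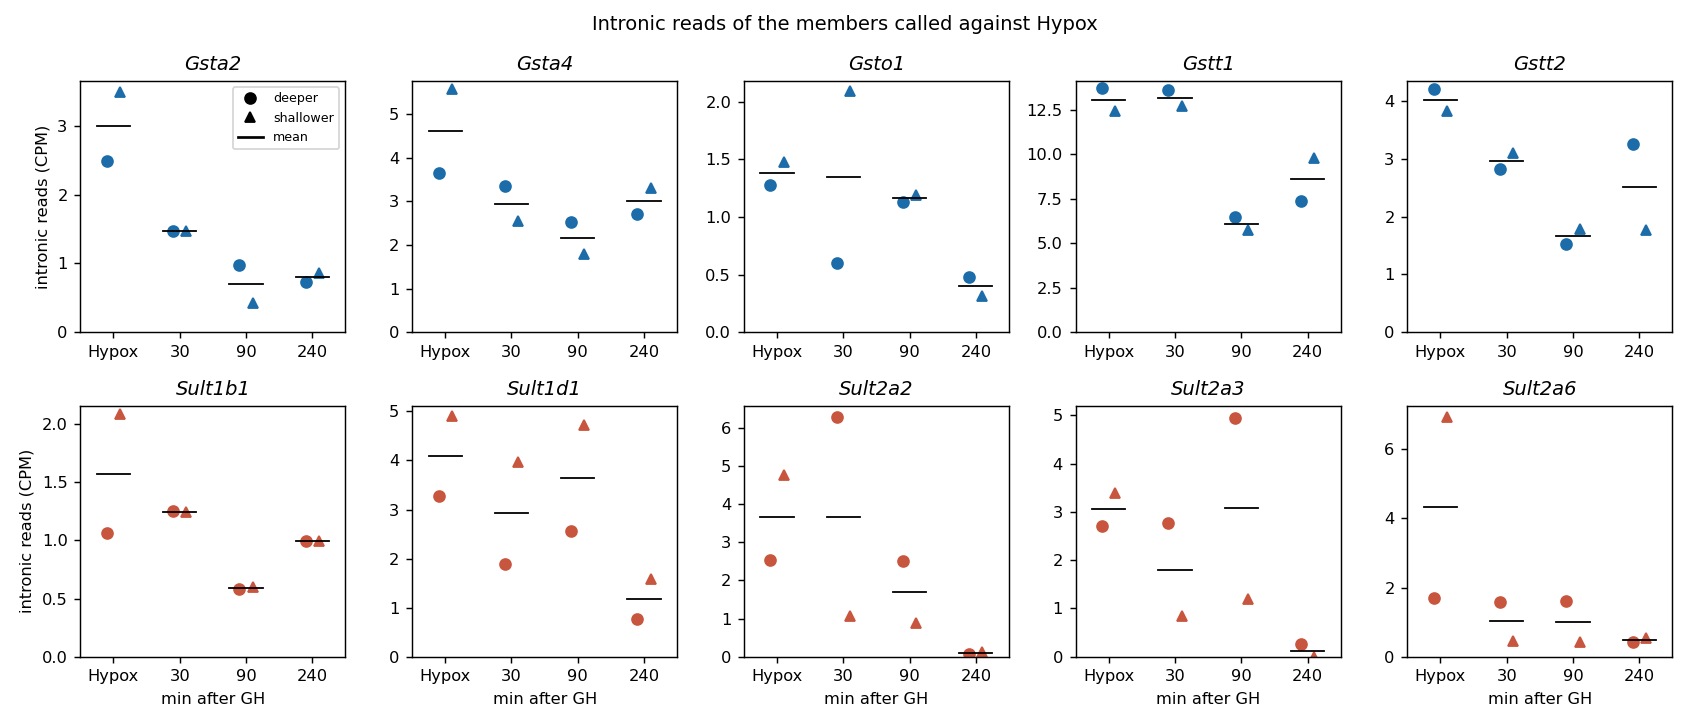
Intronic reads in CPM of the 10 members called lower at 90 or 240 min against Hypox, by group, with the deeper library as a circle, the shallower as a triangle and a bar for their mean; each panel has its own scale from 0. Gsta2 and Gstt1 are low at 90 and 240 min, and the Sult2a genes have their lowest means at 240 min after wide spread between libraries at the earlier times.

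Among the family 1 sulfotransferases, Sult1d1 and Sult1b1, which are neighbours on chromosome 5, each passed the test against Hypox at 1 time. Sult1d1, which in mice sulfates catecholamines, had intronic reads of 0.771 and 1.59 CPM at 240 min against 3.27 and 4.91 CPM in Hypox livers. It fell 3.39-fold (-1.76 ± 0.42, adjusted p = 0.0243), while the 30 and 90 min libraries, between 1.89 and 4.72 CPM, overlapped Hypox. The call held in 10 of 12 settings (6.17e-05 to 0.209) and was lost without the shallower Hypox (0.209) or the deeper 240 min library (0.175). Exonic Sult1d1 reads were 37.9 and 24.4 CPM at 240 min against 33.5 and 37.5 CPM in Hypox livers, at -0.22 ± 0.18 (adjusted p = 0.469). Sult1b1 introns had 0.58 and 0.597 CPM at 90 min against 1.06 and 2.08 CPM in Hypox livers and fell 2.31-fold (-1.21 ± 0.33, adjusted p = 0.0497). That value sits at the threshold and held in 2 of 12 settings (0.0282 to 0.391); it was 0.391 without the shallower Hypox library, 0.16 without the deeper and 0.175 without the shallower 90 min library.

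Exonic Sult1b1 reads ran from 6.5 to 8.53 CPM over the 8 libraries, with 7.54 and 6.5 CPM at 240 min against 7.47 and 6.82 CPM in Hypox livers. Sult1a1 introns had 1.28 and 2.13 CPM at 240 min against 3.41 and 2.27 CPM in Hypox livers, with no overlap (-0.71 ± 0.36, adjusted p = 0.23), and its exonic reads ran from 39.1 to 53.2 CPM over all libraries. Sult1c2 had 0.854 and 0.999 exonic CPM at 240 min against 1.93 and 1.26 CPM in Hypox livers, at -0.7 ± 0.29 (adjusted p = 0.148). Sult1e1, the estrogen sulfotransferase, had 9 and 7 intronic reads at 90 min against 2 and 1 in Hypox livers, and 0 in both 240 min libraries. It had too few reads for the test, and the authors' deposited table gave it as the 1 member with higher introns at 90 min.

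The Sult2a genes encode hydroxysteroid and bile acid sulfotransferases and lie together on chromosome 7, from 14209315 to 15078275 in mm9. Introns of 6 of them held few reads at 240 min, and those of Sult2a7 held more. Summed over Sult2a1 to Sult2a6, intronic reads came to 8.21 and 18.6 CPM in Hypox livers, 13.9 and 3.56 CPM at 30 min, 12.3 and 2.87 CPM at 90 min and 1.03 and 0.725 CPM at 240 min. In this sum both 240 min libraries were below the other 6 libraries. Single genes could overlap the earlier GH times, such as Sult2a6, with 12 and 12 reads at 240 min and 7 in the shallower 90 min library. With Sult2a7 added, the sum was 16.8 and 37.9 CPM in Hypox livers, 27.4 and 6.11 CPM at 30 min, 17.4 and 3.28 CPM at 90 min and 3.82 and 6.84 CPM at 240 min. The 240 min libraries then stayed below both Hypox libraries but overlapped the 30 and 90 min libraries. In reads, Sult2a1 to Sult2a6 together had 28 and 16 at 240 min against 294 and 589 in Hypox livers, 6.83% of the Hypox rate with an exact Clopper-Pearson 95% interval of 4.92% to 9.24% that covers counting error only.

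Single genes of the group went the same way. Sult2a2 introns had 2 and 3 reads at 240 min (0.0734 and 0.136 CPM) against 91 and 151 in Hypox livers (2.54 and 4.76 CPM), 2.83% of the Hypox rate (0.911% to 6.7%). The fitted log2 fold change, which depends on the pseudocount of 0.1 CPM, was -4.15 ± 0.68 (adjusted p = 0.00572). Sult2a3 introns had 7 and 0 reads at 240 min against 97 and 108 in Hypox livers, 4.68% of the Hypox rate (1.86% to 9.81%), at -4.05 ± 0.72 (adjusted p = 0.00745). Sult2a6 introns had 12 and 12 reads at 240 min against 61 and 220 in Hypox livers, 11.7% of the Hypox rate (7.37% to 17.8%), at -2.59 ± 0.71 (adjusted p = 0.0401). Leaving out the shallower Hypox library moved the log2 fold change of Sult2a6 to -1.62, and leaving out the deeper moved it to -3.58. That of Sult2a3 moved to -3.13 with the shallower and to -4.96 with the deeper 240 min library left out. All 3 were lost with limma-voom (adjusted p = 0.0969, 0.0882 and 0.102 in this order) and when the shallower Hypox library was left out (0.0759, 0.0804 and 0.347). Without the deeper 240 min library Sult2a2 had 0.0571 and Sult2a6 0.185, and without the shallower one Sult2a3 had 0.0577 and Sult2a6 0.125. Sult2a2 and Sult2a3 each held in 9 of 12 settings (5.55e-17 to 0.0969 and 8.78e-17 to 0.0882) and Sult2a6 in 7 of 12 (1.33e-05 to 0.347), the lowest p being that of the authors' deposited table.

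The other 4 Sult2a genes were lower at 240 min without passing limma's test. Sult2a1 introns had 2 and 0 reads at 240 min against 13 and 44 in Hypox livers (adjusted p = 0.0523), Sult2a5 introns 4 and 1 against 18 and 57 (adjusted p = 0.0846), and Sult2a4 introns 1 and 0 against 14 and 9 (adjusted p = 0.173). Sult2a7, the most abundant of them in exonic FPKM, had 2.79 and 6.12 intronic CPM at 240 min against 8.63 and 19.4 CPM in Hypox livers, 31.3% of the Hypox rate (26.8% to 36.4%) and on the log2 scale -1.62 ± 0.95 (adjusted p = 0.303), and 5.07 and 0.418 CPM at 90 min (-2.99 ± 0.95, adjusted p = 0.0892). The authors' deposited table called all 7 Sult2a introns lower at 240 min, and Sult2a6 and Sult2a7 at 90 min. Against the 90 min libraries, Sult2a2 (-2.99 ± 0.68, adjusted p = 0.0179), Sult2a3 (-3.76 ± 0.72, adjusted p = 0.00783) and Sult1d1 (-1.56 ± 0.42, adjusted p = 0.0368) were lower at 240 min, 3 of 33 members with 6.01% of all genes called lower. Against the 30 min libraries, the same 240 min libraries gave Sult2a1 (adjusted p = 0.0299), Sult2a2 (0.00686), Sult2a3 (0.02) and Gstt1 (0.0438) as lower, 4 of 33 with 5.57% of all genes called lower and 4.8% higher.

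Several Sult2a genes differed widely between the 2 libraries of a group, though not all and not in every group. At 90 min Sult2a3 had 138 exonic reads in the deeper and 3 in the shallower library, a 15.5-fold difference on the CPM + 0.1 scale that 0.00759% of the genes tested matched or passed. At 240 min Sult2a2 had 63 and 3 exonic reads (10.3-fold, 0.0304% of genes) and Sult2a3 80 and 7 (7.34-fold, 0.0532% of genes), while the median gene differed 1.18-fold. In the same 240 min libraries exonic Sult2a6 differed 1.18-fold and Sult2a7 1.12-fold. In Hypox livers exonic Sult2a3 differed 1.16-fold and Sult2a1 1.28-fold, as 43.8% and 24.7% of genes did or more. The other Hypox pairs lay further apart, at 1.42-fold for Sult2a7 (13.6% of genes) and 2.07-fold for Sult2a4 (1.93%). Sult2a2, Sult2a5 and Sult2a6 differed 2.69-, 2.71- and 2.77-fold there (0.676%, 0.653% and 0.585%). Intronic Hypox pairs ran from 1.25-fold for Sult2a3 to 3.9-fold for Sult2a6 (0.277% of genes). Summed over Sult2a1 to Sult2a6, exonic reads were 4.77 and 10.2 CPM in Hypox livers, 11.1 and 4.24 CPM at 30 min, 19.1 and 3.81 CPM at 90 min and 9.69 and 3.45 CPM at 240 min. The shallower library was thus the lower one at each GH time and the higher one in Hypox. Exonic Sult2a7 reads were 14.2 and 20.1 CPM in Hypox livers, 20.5 and 9.81 CPM at 30 min, 21.1 and 8.42 CPM at 90 min and 13.6 and 15.3 CPM at 240 min, with overlap at each time. No Sult2a gene passed the test on exonic reads, whose standard errors were 0.4 to 1.1 on the log2 scale, against a median of 0.196 over all genes. At 90 min Gsta1 had 41 exonic reads in the deeper and 2 in the shallower library, a 6.18-fold difference that 0.0759% of genes matched or passed.

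**Figure D4:**
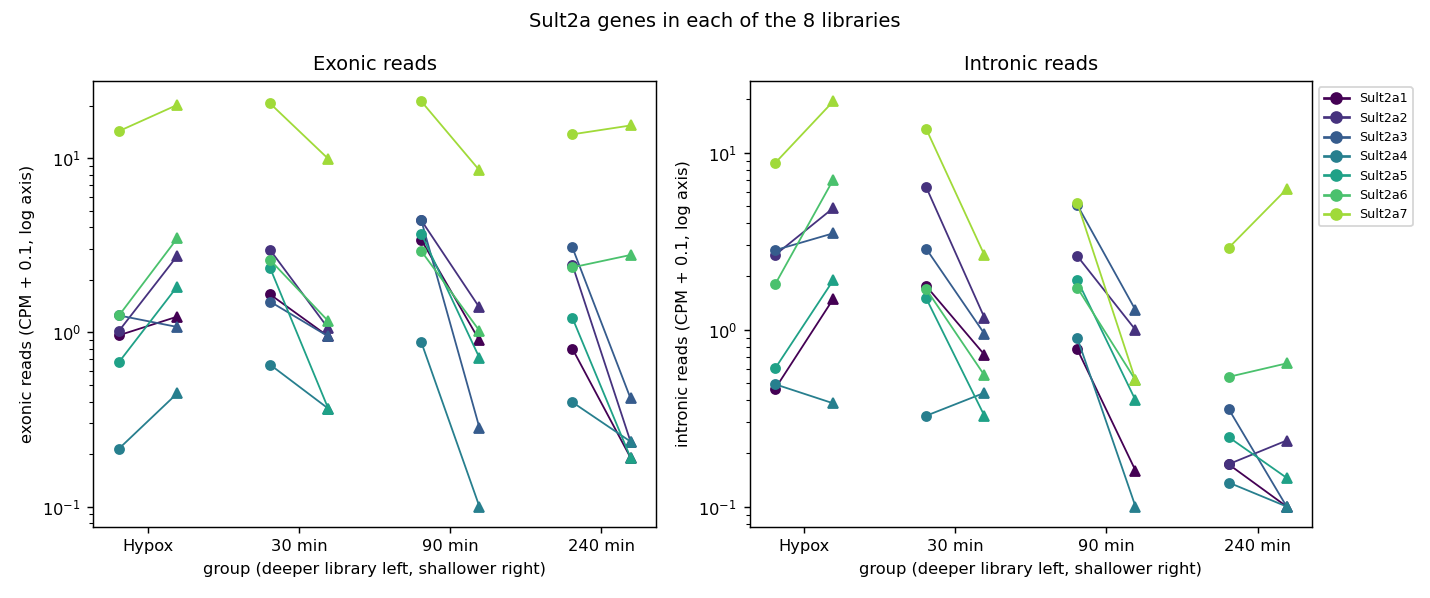
Exonic (left) and intronic (right) reads of Sult2a1 to Sult2a7 in each library, in CPM + 0.1 on a log axis; lines join the deeper (circle) and the shallower (triangle) library of 1 group. The slope is steep at 90 min for exonic Sult2a3, with 4.3 and 0.184 CPM, and the intronic values of Sult2a1 to Sult2a5 lie near the bottom at 240 min in both libraries.

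Sult3a1, an amine sulfotransferase gene on chromosome 10, rested mainly on 1 library. It had 36 and 1 exonic reads in Hypox livers, 0 and 7 at 30 min, 1 and 0 at 90 min and none in either library at 240 min. Intronic reads were 27 and 1 in Hypox livers, 0 and 7 at 30 min and 0 at the later times. Most reads were thus in the deeper Hypox library, and the shallower 30 min library held most of the rest. The gene was not tested by limma. The authors' deposited table called it lower on exonic reads at 240 min (adjusted p = 0.019) and on introns at 90 min (0.0338) and 240 min (0.0309). A further 3 sulfotransferases are listed under older symbols outside the rule. Of these, 2810007J24Rik, now Sult2a8, had authors' exonic means of 31.2 FPKM in Hypox livers and 28.9, 23 and 32.1 FPKM in time order. No time passed limma's test on its exonic reads (adjusted p = 0.989, 0.69 and 0.979 in time order). Sult2a8 introns fell at 90 min, with 300 and 45 reads against 563 and 1539 in Hypox livers (-2.45 ± 0.6, adjusted p = 0.0313). They were not called at 30 min (0.33 ± 0.6, adjusted p = 0.892) or 240 min (-1.94 ± 0.6, adjusted p = 0.0614). Gm4794, now Sult3a2, had 10 and 2 exonic reads in Hypox livers and none at the GH times, and Gm766, now Sult6b2, had none.

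Beside the members, 5 lists of related genes were counted. The shares of all genes called higher and lower, against which their counts stand, were 5.72% and 5.54% on exonic reads at 240 min, and on introns 1.39% and 1.02% at 30 min. On introns they were 3.26% higher with 4.3% lower at 90 min, and 4.94% higher with 6.23% lower at 240 min. In the list of glutathione synthesis, recycling and breakdown (22 genes), 0 rose and 2 of 18 tested fell on exonic reads at 240 min. They were Anpep, an aminopeptidase of glutathione conjugate processing, with 29.1 and 29.6 CPM at 240 min against 45.9 and 50.5 CPM in Hypox livers (-0.71 ± 0.12, adjusted p = 0.00659), and Abcc2, the canalicular pump for glutathione conjugates, with 117 and 158 CPM against 275 and 238 CPM (-0.92 ± 0.2, adjusted p = 0.0185). On introns 2 of 17 fell at 30 min, 2 rose and 3 fell at 90 min, and 3 fell at 240 min. Gclc, which encodes the catalytic subunit of the first step of glutathione synthesis, had 164 and 165 intronic CPM at 90 min against 105 and 85.3 CPM in Hypox livers (0.8 ± 0.21, adjusted p = 0.0468), and 53.1 and 54.6 CPM at 240 min (-0.81 ± 0.21, adjusted p = 0.0349). Gsr, glutathione reductase, rose at 90 min (0.76 ± 0.17, adjusted p = 0.0193). Abcc2 introns fell at 30 min (-1.23 ± 0.26, adjusted p = 0.0331) and at 90 min (-1.71 ± 0.26, adjusted p = 0.00298).

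In the list of the NRF2 pathway and its targets (29 genes, 27 tested), 2 fell and none rose on exonic reads at 240 min, Abcc3 (-0.58 ± 0.13, adjusted p = 0.0192) and Maff (-1 ± 0.28, adjusted p = 0.0464). On introns 1 rose and 1 fell at 30 min, 3 rose and 3 fell at 90 min, and 7 fell at 240 min. The thioredoxin gene Txn1 had 13.6 and 13.6 intronic CPM at 30 min against 4.44 and 3.46 CPM in Hypox livers (1.77 ± 0.2, adjusted p = 0.00123). Bach1, a repressor at antioxidant response elements, had 15.6 and 14.1 intronic CPM at 240 min against 35.8 and 37.6 CPM in Hypox livers (-1.3 ± 0.16, adjusted p = 0.00142), and Maff, a partner of NRF2, fell by 2.3 ± 0.27 (adjusted p = 0.00105).

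Among 20 genes of PAPS supply, sulfate transport and sulfatases (19 in the table, 17 tested), 2 fell on exonic reads at 240 min, Slc26a1 (-0.6 ± 0.14, adjusted p = 0.0212) and Cdo1 (-0.5 ± 0.12, adjusted p = 0.0251). On introns 1 rose and 1 fell at 30 min, 2 fell at 90 min, and 1 rose and 2 fell at 240 min. Cdo1, which starts the path from cysteine to sulfate and taurine, also fell on introns at all 3 times, with 6.41 and 6.69 CPM at 90 min against 17.2 and 26 CPM in Hypox livers (-1.67 ± 0.19, adjusted p = 0.000741). The PAPS synthase gene Papss1 had 9.17 and 12.3 intronic CPM at 240 min against 4.41 and 4.19 CPM in Hypox livers (1.28 ± 0.19, adjusted p = 0.00397), and Papss2, the other synthase, fell at 90 min (-1.04 ± 0.28, adjusted p = 0.048). In the list of nuclear receptors of the xenobiotic response and their marker targets (16 genes), 8 of 15 tested fell on introns at 90 min, with a list median of -1.05, 2 fell at 30 min and 3 at 240 min, and 4 of 16 fell on exonic reads at 240 min. Cyp3a11, a target of PXR, had 17.8 and 19.6 intronic CPM at 90 min against 171 and 151 CPM in Hypox livers (-3.1 ± 0.23, adjusted p = 7.27e-05). Nr1i3, which encodes the receptor CAR, had 22.1 and 14.6 exonic CPM at 240 min against 49.3 and 49.4 CPM in Hypox livers (-1.45 ± 0.22, adjusted p = 0.0039). Of 12 other genes with a glutathione transferase fold or of the MAPEG family, 9 were tested, and Eef1g (0.9 ± 0.19, adjusted p = 0.0138) and Vars (1.08 ± 0.24, adjusted p = 0.0178) rose on introns at 240 min. On exonic reads none of the 5 lists had a called gene at 30 or 90 min, where the smallest p of a list belonged to Gpx1, Hmox1, Csad, Por and Eef1g at 30 min (adjusted p = 0.622, 0.103, 0.607, 0.565 and 0.842) and to Ggt6, Mafg, Slc26a1, Hnf4a and Clic5 at 90 min (0.365, 0.229, 0.531, 0.102 and 0.466).

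Some markers of other cell types moved at 240 min too, where 5.72% of all genes were called higher and 5.54% lower on exonic reads. The sum over 7 cholangiocyte markers was 15.4 and 24.4 CPM at 240 min against 7.36 and 10.1 CPM in Hypox livers, with 4 of 7 called higher. The sum over 6 sinusoidal endothelial markers was 104 and 108 CPM at 240 min against 130 to 144 CPM in the other 6 libraries, with 2 called lower, and the 6 hepatocyte markers summed to 23900 and 22900 CPM against 29300 and 30400 CPM with none called. No Kupffer cell, stellate cell, neutrophil, erythroid or lymphocyte marker was called at 240 min, and 1 of 7 pericentral hepatocyte markers was called higher. The part of cell makeup in the 240 min results was not tested. Of the 4 markers of pituitary and other tissues, Gh, Prl and Ins2 were at 0 in every library.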

How the data were processed

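Total RNA from mouse liver, partly depleted of ribosomal RNA, was sequenced in strand-specific libraries. The authors deposited group mean FPKM values for the gene body (called exonic here) and for introns, with their own ratio and adjusted p-value for each time against Hypox. The submitters' processing notes name TopHat2, featureCounts and edgeR, with versions not given in the sources used here, and the files use build mm9. Counts of each library were not used as such. Since a mean FPKM is fixed by the whole reads of 2 libraries, their mapped totals and the length, reads were recovered by arithmetic, for 18359 of 18359 genes on exons and 17041 of 17098 on introns. With totals moved by 1000 reads, 0 of 1000 genes checked came out whole, against 1000 of 1000 with the totals used, and in simulated data 1500 of 1500 genes were recovered. The recovered libraries cannot be tied to pool numbers.

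A gene entered the test when 2 or more libraries held 10 or more of its reads (13170 exonic, 12260 intronic). The test was run with limma 3.58.1 in R 4.3.3 on log2(CPM + 0.1), after scaling between libraries. All 8 libraries entered 1 fit, with Benjamini-Hochberg adjustment over all genes in each comparison and a threshold of 0.05. Fold changes on this scale understate those of low genes. The replicates are pools of RNA, so p-values measure the spread between 2 pools a group. Counting intervals cover counting error only. Members are given per library when called, when they changed by 1 or more on the log2 scale at a mean of 2 or more CPM, when among the 5 of each family with the highest Hypox FPKM, or when the authors' table called them; from each list, called genes with the smallest p are named, at most 4 per comparison. Other members are given where they stood close to a call or a class needed them, chosen after their values were seen. Members and lists were chosen with earlier results of these data known.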

Additional observations from a re-analysis of the deposited data

How the results depend on the processing

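No paired analysis was possible because the recovered libraries carry no pool number. The planned edgeR and DESeq2 fits were not run. Of the 13 member calls against Hypox, or between 240 and 90 min on exons, 97 of 154 alternative fits kept the call, 57 lost it and 0 reversed it. Counts of members called that moved were as follows, and the cause was not tested. On exons, the authors' deposited table gave 1 at 90 min and 1 at 240 min (0 here), scaling by library totals only gave 1 at 240 min, and leaving out 1 library gave 0 to 2 at 240 min and 0 at 30 and 90 min. For 240 against 90 min on exons (1 here), no filter gave 0, library totals only 0, and leaving out 1 library 0 to 2. On introns at 30 min (0 here) the authors' table gave 1 and leaving out 1 library 0 to 1. On introns at 90 min (5 here) limma-voom gave 3, the authors' own p-values 12 and leaving out 1 library 1 to 4. On introns at 240 min (7 here) no filter gave 4, limma-voom 3, the authors' own p-values 11 and leaving out 1 library 0 to 6. Restricting to genes listed at 1 genome location was chosen after seeing the data. With 2 pools a group, changes within the spread between pools were not detectable at this depth.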
